A study of Mus musculus with 56 samples.

Results

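The IL-2 receptor system and its feedback inhibitors, 8 genes in all, were read in 4 helper T cell subsets that by label had lost ODC or DOHH, enzymes of polyamine and hypusine metabolism. The genes are Il2 (the cytokine interleukin-2, IL-2), Il2ra, Il2rb and Il15ra (receptor chains), and Cish, Socs1, Socs2 and Socs3 (feedback inhibitors). The 8 genes were named, with earlier results of these data known, out of 47937 genes listed in the count tables. All 8 passed the filter on low counts in both tables, which left 13839 genes to test in the Odc and 13897 in the Dohh table. Il2rg, the common gamma chain shared by these receptors, was left out because it was listed at 0 counts in all 24 libraries of the Dohh table, while the 31 libraries of the Odc table held 80493 Il2rg counts. Part of its exon length, 30.5%, is overlapped on the same strand by Gm20489, a gene listed in both tables. The 0 is given as listed and is not read as a level of expression, and the part of annotation or counting in it was not tested.

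CD4+ T cells came from the spleen and lymph nodes of C57BL/6 mice, 6 to 10 weeks old, that carried loxP-flanked Odc or Dohh alleles. The methods describe the starting cells as naive and isolated by negative selection, while the sample labels name only CD4+ T cells. ODC (gene Odc1) makes the polyamine putrescine, and DOHH completes hypusine, a modified amino acid of the translation factor eIF5A. Mice with Cre recombinase under the CD4 promoter were the knockouts (KO), here called libraries labelled Odc-/- or Dohh-/-, and Cre-negative floxed mice were the wild types (WT). The CD4 promoter is also active in thymocytes that later become CD8 T cells, so deletion is not limited to the helper lineage. Cells were cultured for 4 days with anti-CD3 (5 µg/mL), anti-CD28 (2 µg/mL) and IL-2 (100 U/mL) under TH1, TH2, TH17 or Treg conditions. To polarize, TH1 cells received IL-12 (10 ng/mL) and anti-IL-4 (4 µg/mL), and TH2 cells IL-4 (10 ng/mL) and anti-IFN-γ (4 µg/mL). TH17 cells received IL-6 and TGF-β (5 ng/mL each), IL-1β (10 µg/mL as listed) and both antibodies at 10 µg/mL, and Treg cells TGF-β (10 ng/mL) and both antibodies at 4 µg/mL. The polarizing mixes listed a further 10 ng/mL of IL-2 for TH1, TH2 and Treg cells and none for TH17 cells, so the supply of IL-2 differed between subsets as well as the cytokines that polarize. Each subset and genotype had 4 biological replicates in the Odc table, except 3 for the TH2 libraries labelled Odc-/-, and 3 in the Dohh table. The 2 tables have their own WT libraries.

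IL-2 is made by activated T cells and binds a receptor of an alpha chain (Il2ra, CD25), a beta chain (Il2rb, CD122) and the common gamma chain. The beta and gamma chains signal through the kinases JAK1 and JAK3 to the transcription factor STAT5, which turns on Il2ra and the inhibitors of the same pathway. CIS (Cish) and the SOCS proteins bind activated receptors or JAKs and damp the signal, each with its own preference: SOCS1 for JAKs and interferon signaling, CIS and SOCS2 for receptors that use STAT5, and SOCS3 for receptors of the gp130 family such as that of IL-6.

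Gene counts per library summed to between 6978044 and 9145214 in the WT and 5905374 and 8012659 in the KO libraries of the Odc table. The Dohh table held 8328721 to 12576933 counts in WT and 6572148 to 11199597 in KO libraries. The targeted genes were not shown to be lower by count, except Odc1 in TH17 cells. In libraries labelled Odc-/-, Odc1 differed from WT by 0.26 (TH1), -0.20 (TH2), -0.40 (TH17) and 0.20 (Treg) on the log2 scale, and only the TH17 value passed the test (adjusted p = 0.0416). In libraries labelled Dohh-/-, Dohh was higher than in WT, by 1.43 in TH1, 1.10 in TH2 and 1.15 in Treg cells, and by 0.41 in TH17 cells (adjusted p = 0.189, edgeR's quasi-likelihood test). Dohh was higher in libraries labelled Odc-/- as well, by 1.26, 1.17, 0.63 and 1.11 in TH1, TH2, TH17 and Treg cells, all past the adjusted p. The methods name exons 9 to 11 of Odc and 2 to 4 of Dohh as flanked by loxP, whereas the counts cover whole genes, so these values do not test the deletion, and the genotypes below rest on the labels.

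The WT subsets carried their defining markers. Tbx21 averaged 148 CPM (the usual unit of counts scaled to library size) in TH1 cells of the Odc table, Gata3 258 CPM in TH2 cells, Il17a 339 CPM in TH17 cells and Foxp3 478 CPM in Treg cells, each the highest of the 4 WT subsets. For the Dohh table the same markers averaged 88.7, 232, 29.5 and 576 CPM in those subsets. Of 8 T cell markers, Cd2, Cd4, Cd5 and Cd28 were called lower in all 4 Dohh comparisons, with list medians of -0.78 to -1.12 on the log2 scale. Of all genes, 14.2%, 11.6%, 14.1% and 15.2% were called lower there in TH1, TH2, TH17 and Treg cells. Cd3e, a chain of the T cell receptor complex, did not pass in any of these 4 comparisons (adjusted p from 0.133 to 0.87). Under the Odc label 0, 4, 1 and 1 of the 8 were called lower in TH1, TH2, TH17 and Treg cells, where 11.3%, 13.6%, 7.21% and 10.1% of all genes were. In libraries labelled Dohh-/- Cd4 averaged 36.1 (TH1), 57.7 (TH2), 61.3 (TH17) and 37.6 CPM (Treg), against 702 to 941 CPM in WT. In libraries labelled Odc-/- the log2 fold changes of Cd4 were -0.71 to -1.01, all past the adjusted p. Cd8a, the CD8 alpha chain, averaged 242 CPM in Treg libraries labelled Dohh-/- against 8.22 CPM in WT, and 165 against 15.1 CPM in the Treg libraries of the Odc table. Cd8b1, the CD8 beta chain, was not called higher in any of the 8 comparisons and was called lower in TH1 (-1.09) and TH2 cells (-1.10) of the Dohh table.

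Markers of other cells also moved with genotype, though not in every subset, read as the summed CPM of fixed lists. The 8 CD8 T and NK cell markers summed to 30.0 to 296 CPM in WT and 186 to 743 CPM in KO libraries of the Odc table, and to 39.9 to 159 and 453 to 2481 CPM in the Dohh table. For 8 basophil and mast cell markers the sums were 5.07 to 48.3 CPM in WT and 25.1 to 335 CPM in KO (Odc), and 3.79 to 25.3 and 67.6 to 1236 CPM (Dohh). The 8 myeloid markers stayed at 51.7 CPM or less in all WT libraries and reached 761 CPM in libraries labelled Odc-/- and 11525 CPM in those labelled Dohh-/-. The high ones were TH17 replicates 2 and 3 (8812 and 11525 CPM) and Treg replicates 2 and 3 (4371 and 4809 CPM) of the Dohh table, and Itgam of this list was at 0 in every group of that table. In the Odc table the myeloid sums did not rise in TH1 (7.55 to 18.9 CPM in WT, 7.98 to 15.1 CPM in KO) or TH2 cells (14.4 to 20.2 and 9.01 to 24.0 CPM). The 6 B cell markers summed to 34.4 to 251 CPM in WT and 114 to 1246 CPM in KO libraries of the Odc table, and to 49.2 to 294 and 11.9 to 848 CPM in the Dohh table, where Pax5 was at 0 in the Treg libraries labelled Dohh-/-. In TH1 cells of the Dohh table the B cell sums were lower in KO libraries, at 11.9 to 36.5 CPM against 49.2 to 65.4 CPM in WT. T cell markers, 8 genes of which none was at 0, summed to 2693 to 4640 CPM in WT and 2100 to 4001 CPM in KO (Odc), and to 3926 to 4721 and 1651 to 3357 CPM (Dohh). In bulk libraries such as these, fewer cells of a type and less RNA per cell cannot be told apart, and the part of these cells in the results was not tested. Where any of the 8 genes passed in TH17 or Treg cells of the Dohh table, its value is also given without the 4 libraries with the most myeloid RNA. Such a value rests on KO replicate 1 alone. That library still held 579 CPM (TH17) and 348 CPM (Treg) of myeloid markers, against at most 41.2 and 30.6 CPM in WT. Results of the marker and gene lists are given only with all libraries in.

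**Figure D1:**
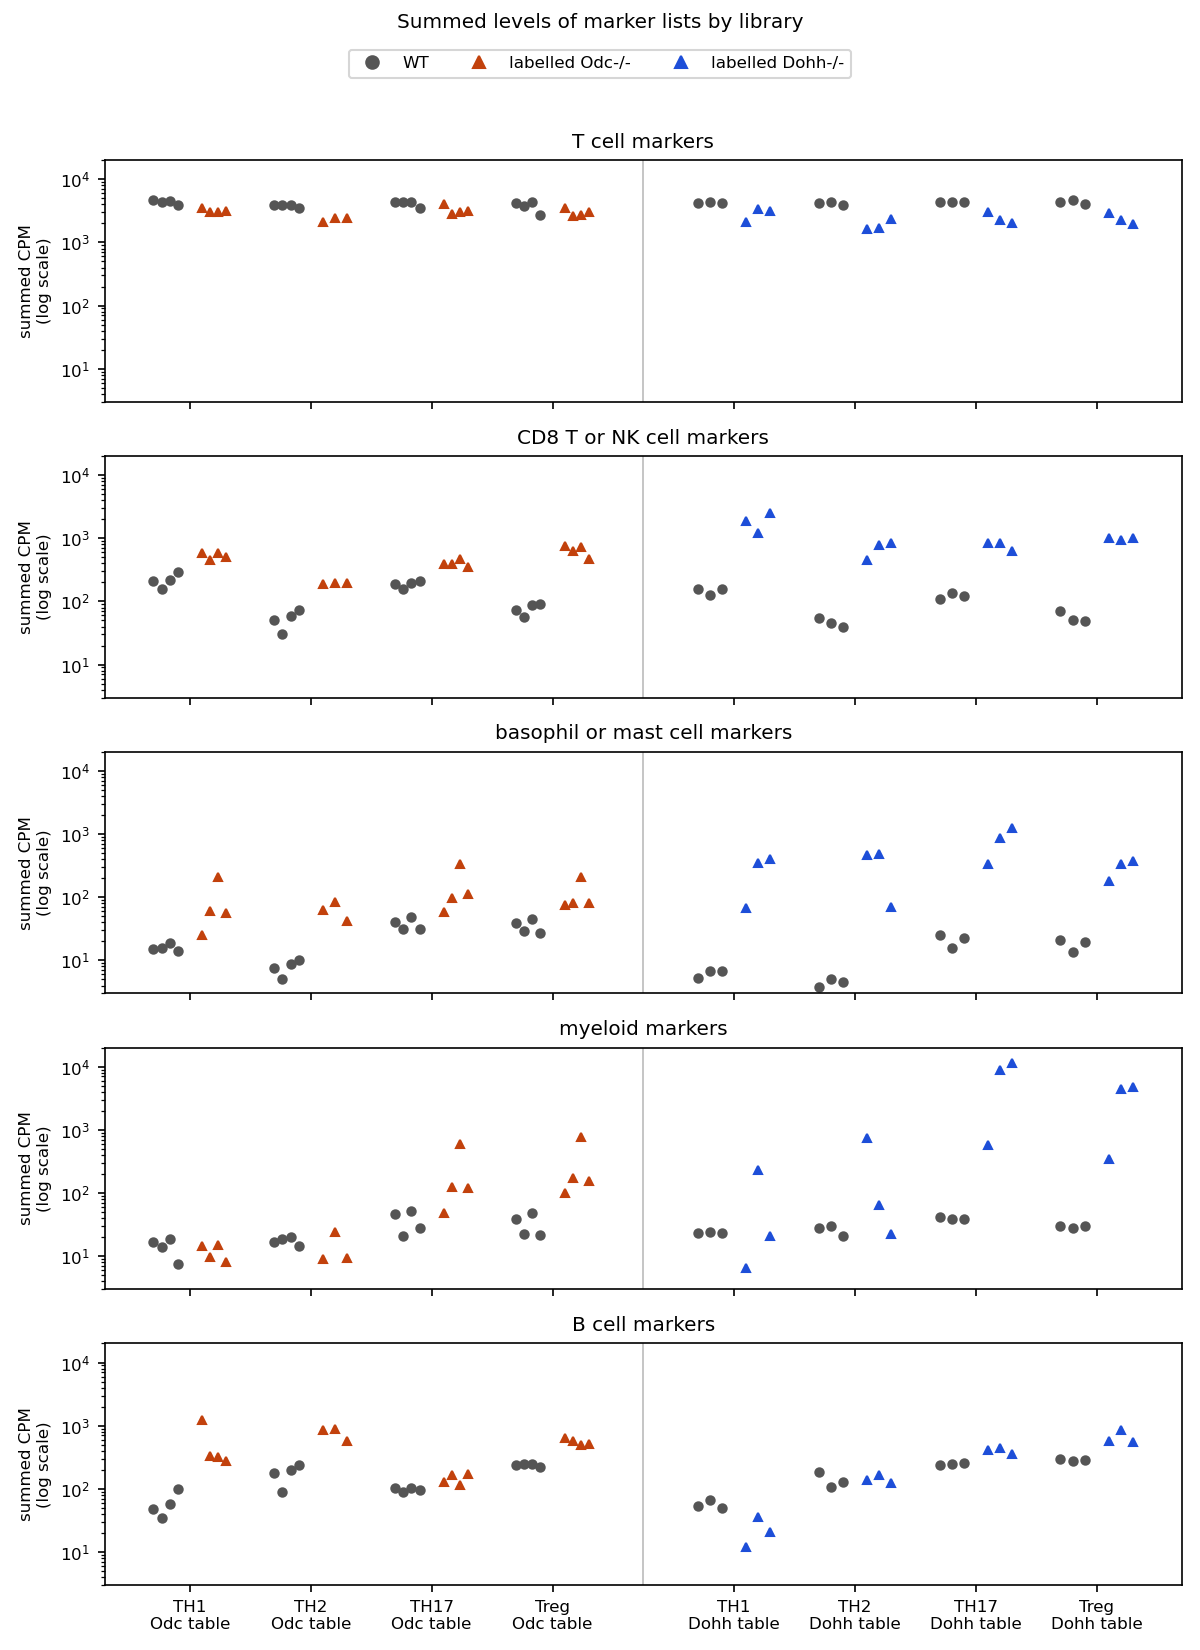
Summed CPM of marker lists in every library, by subset and genotype, on a log scale. The panels show T cell, CD8 T and NK cell, basophil and mast cell, myeloid and B cell markers. In each panel the Odc table is on the left and the Dohh table on the right. The 4 libraries labelled Dohh-/- that stand above 1000 CPM of myeloid markers are TH17 and Treg replicates 2 and 3.

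In WT libraries, Il2ra was the most abundant of the 8 genes per kilobase of exon, and Il2 and Il15ra the least. The length was that of all annotated exons of a gene merged, such as 6419 bases for Cish, 9531 for Socs2 and 2891 for Socs3. The order depends on these lengths, which were the same for both tables. On the scale of CPM per kilobase, averaged over the 16 WT libraries of the Odc table, Il2ra stood at 591, Il2rb at 285, Socs3 at 102, Cish at 98.8, Socs1 at 34.7, Socs2 at 17.2, Il15ra at 2.73 and Il2 at 2.06. The 12 WT libraries of the Dohh table gave 313 for Il2ra, 202 for Il2rb, 133 for Socs3, 95.1 for Cish, 43.4 for Socs1, 13.2 for Socs2, 3.10 for Il15ra and 1.06 for Il2, the same order on a scale set within that table. Socs3 and Cish were close in the Odc table, where their ranges over libraries overlapped (19.1 to 200 and 68.0 to 123 CPM per kilobase).

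**Figure D2:**
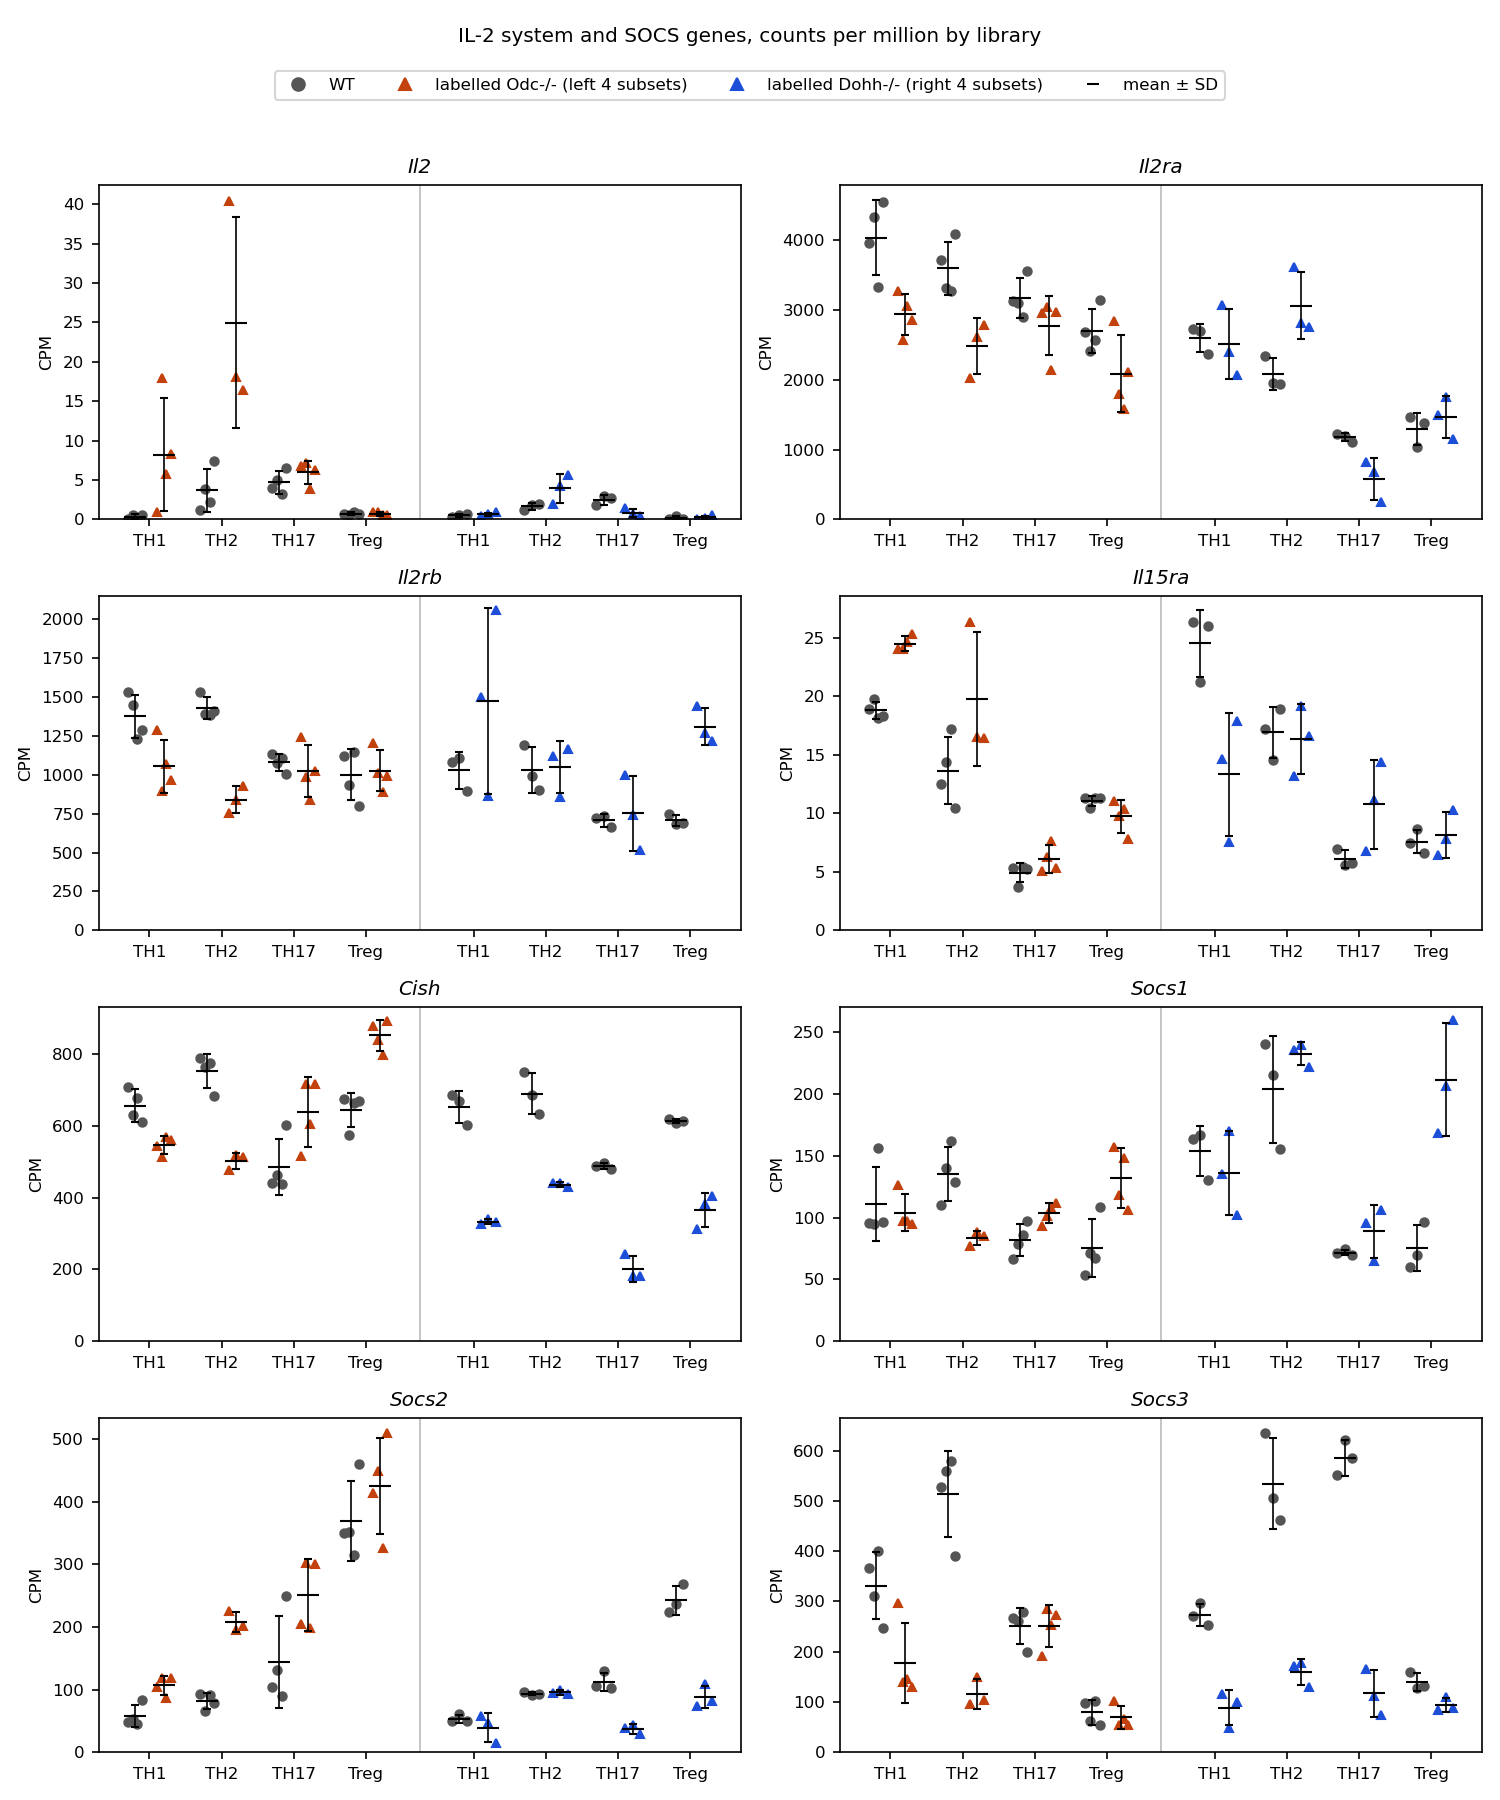
CPM of each of the 8 genes in every library, by subset, with WT and KO of the Odc and Dohh tables side by side and bars at the group means. Socs3 in TH17 cells of the Dohh table lies between 551 and 621 CPM in WT and between 73.6 and 167 CPM in libraries labelled Dohh-/-.

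Loss of Odc or Dohh, by label, was followed by different patterns over the 8 genes. A gene was called when it differed more than 2-fold from WT with an adjusted p under 0.05 (edgeR's quasi-likelihood test, Benjamini-Hochberg over all genes tested). In the Odc table, Il2 was called higher in TH1, and Il2 and Socs2 higher and Socs3 lower in TH2. None of the 8 was called in TH17 or Treg cells. In the Dohh table, Socs3 was called lower in TH1 and TH2, and Il2, Il2ra, Cish, Socs2 and Socs3 lower in TH17. Socs1 was called higher and Socs2 lower in Treg cells. Many genes passed the same call. Of all genes in the Odc table, 10.2% were called higher and 11.3% lower in TH1, 11.5% and 13.6% in TH2, 8.35% and 7.21% in TH17, and 13.9% and 10.1% in Treg cells. In the Dohh table the shares were 14.8% higher and 14.2% lower in TH1, 14.3% and 11.6% in TH2, 17.3% and 14.1% in TH17, and 17.5% and 15.2% in Treg cells.

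Most counts over the 8 genes were thus near these shares. In TH17 cells of the Dohh table, under that rule, 5 of 8 were called lower beside 14.1% of all genes, and their median log2 fold change was -1.14 beside 0.01 over all genes tested. That count was 3 with no filter on low counts and 2, Socs2 and Socs3, without the libraries of high myeloid RNA. Without a fold threshold, 7, 8, 2 and 3 of the 8 passed the adjusted p in TH1, TH2, TH17 and Treg cells of the Odc table, where 56.8%, 59.2%, 47.8% and 59.8% of all genes did. The same counts in the Dohh table were 3, 2, 6 and 4, beside 50.0%, 45.3%, 52.0% and 53.4% of all genes.

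**Figure D3:**
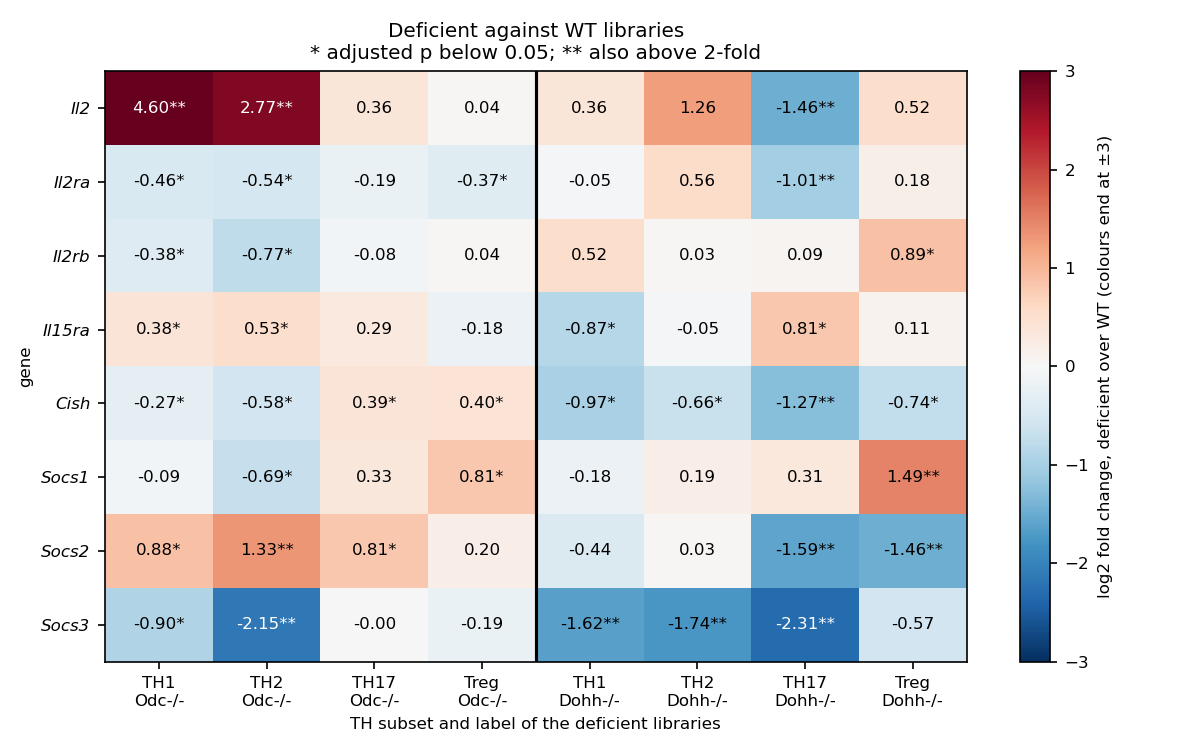
Log2 fold change of each of the 8 genes, KO against WT, in each subset of the Odc and Dohh tables, with marks on the values that passed. Il2 in TH1 of the Odc table (4.60) is the highest value and Socs3 in TH17 of the Dohh table (-2.31) the lowest.

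Il2 (chr3:37120523-37125959, minus strand, GRCm38), which encodes the cytokine, was a low transcript in all libraries. In TH1 cells of the Odc table the 4 WT libraries held 0, 4, 1 and 4 Il2 counts, or 0, 0.569, 0.145 and 0.592 CPM. The libraries labelled Odc-/- held 6, 136, 41 and 59 counts, or 0.906, 18.0, 5.77 and 8.26 CPM. Every KO library stood above every WT library, and KO replicate 1 was close to the WT. The log2 fold change was 4.60 ± 0.74 (SE), with an adjusted p of 1.81e-05 by edgeR's quasi-likelihood test. It was 3.88 without KO replicate 2, which held 136 of the counts. Its size rests on 9 WT counts in all, and with only these 2 groups in the fit Il2 did not pass the filter on low counts and was not tested.

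TH2 cells gave a firmer Il2 difference. WT libraries of the Odc table stood at 1.22, 3.87, 2.27 and 7.43 CPM (10 to 51 counts), and those labelled Odc-/- at 40.4, 18.1 and 16.4 CPM (127 to 305 counts). The groups did not overlap, and Il2 rose 6.82-fold (log2 2.77 ± 0.53, adjusted p = 8.94e-05). In TH17 cells Il2 lay between 3.28 and 6.51 CPM in WT and 3.83 and 7.10 CPM in KO libraries (log2 0.36 ± 0.51), and in Treg cells between 0.517 and 0.922 and between 0.518 and 0.964 CPM (log2 0.04 ± 0.81), so both pairs of groups overlapped. The effect on Il2 differed between the subsets (interaction adjusted p = 0.00166).

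The libraries of the Dohh table held less Il2, 309 counts in all 24 libraries. In TH17 cells WT libraries stood at 1.78, 2.93 and 2.66 CPM and those labelled Dohh-/- at 1.42, 0.723 and 0.453 CPM (14, 9 and 3 counts). Il2 fell by 1.46 ± 0.56 on the log2 scale with an adjusted p of 0.0341. The call did not last, and the value was -0.77 (adjusted p = 0.448) without the 2 libraries of high myeloid RNA. In TH2 cells Il2 was at 1.15, 1.80 and 2.02 CPM in WT and 1.99, 4.28 and 5.62 CPM in KO libraries, with a log2 difference of 1.26 ± 0.53 that missed the adjusted p (0.0553). It was called with only these 2 groups in the fit (1.27), with the replicate number as a block (1.19) or without KO replicate 1 (1.55). TH1 and Treg cells of this table held 1 to 8 Il2 counts a library in either genotype, and their differences of 0.36 and 0.52 were within the error (SE 0.66 and 0.81).

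Il2ra (chr2:11642807-11693193, plus strand), the alpha chain that gives the receptor its high affinity and a gene that IL-2 itself induces, fell modestly in 3 subsets of the Odc table. In TH1 cells the WT libraries had 3951, 4324, 3322 and 4548 CPM and the libraries labelled Odc-/- 3264, 2571, 3057 and 2849 CPM, so that no KO library reached the lowest WT one. The log2 fold changes were -0.46 ± 0.15 in TH1 (adjusted p = 0.0088), -0.54 ± 0.16 in TH2 (adjusted p = 0.005) and -0.37 ± 0.15 in Treg cells (adjusted p = 0.0284), all under 2-fold. The Treg value missed the adjusted p without KO replicate 2 or 3 or WT replicate 4 (-0.26 to -0.31). In Treg cells the groups overlapped, at 2408 to 3148 CPM in WT and 1585 to 2842 CPM in KO libraries. TH17 cells gave -0.19 ± 0.15 (adjusted p = 0.28). In both subsets KO replicate 3 was the lowest, at 1585 CPM (Treg) and 2144 CPM (TH17). It held 761 CPM of myeloid markers in Treg cells, against 99.9 to 175 CPM in the other KO libraries. In TH17 cells it held 588 CPM, against 48.5 to 123 CPM. The part of this RNA in the Il2ra values was not tested.

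With the Dohh label Il2ra was called in TH17 cells only. WT libraries stood at 1227, 1193 and 1114 CPM and those labelled Dohh-/- at 823, 684 and 243 CPM. Replicate 3, the lowest, was also the library with the highest myeloid sum (11525 CPM). The mean fell 2.02-fold, just past the threshold (log2 -1.01 ± 0.29, adjusted p = 0.00592). Without KO replicate 3 it was -0.63, and without replicates 2 and 3 it was -0.51 (adjusted p = 0.167). In TH2 cells the direction was the other one, with 2344, 1959 and 1946 CPM in WT and 3613, 2814 and 2762 CPM in KO libraries. The groups did not overlap, yet the difference of 0.56 ± 0.29 missed the adjusted p (0.118). TH1 and Treg cells gave -0.05 and 0.18, both with an SE of 0.29.

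Il2rb (chr15:78479256-78495271, minus strand), the beta chain that carries the STAT5 docking sites and also serves IL-15, was never called. In TH2 cells of the Odc table WT libraries had 1533, 1393, 1385 and 1407 CPM and the libraries labelled Odc-/- 754, 838 and 926 CPM. The groups lay well apart, with a 1.70-fold fall (log2 -0.77 ± 0.14, adjusted p = 3.48e-05). TH1 cells gave -0.38 ± 0.12 (adjusted p = 0.00999, and 0.0501 without KO replicate 2) with overlapping libraries, whereas TH17 and Treg cells gave -0.08 and 0.04. The interaction was significant (adjusted p = 0.00431). In Treg cells of the Dohh table Il2rb went up under 2-fold, from 747, 685 and 690 CPM in WT to 1441, 1269 and 1216 CPM (1.85-fold, log2 0.89 ± 0.24, adjusted p = 0.00445). It was 0.99 without the 2 Treg libraries of high myeloid RNA, with 1 KO library left. The other Dohh subsets did not pass, and TH1 libraries labelled Dohh-/- spread from 860 to 2057 CPM.

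Il15ra (chr2:11705290-11734317, plus strand) lies beside Il2ra on chromosome 2, on the same strand, and encodes the chain that holds IL-15 for the shared beta and gamma chains. It was scarce, at 3.75 to 26.3 CPM in WT libraries. In TH1 cells of the Odc table WT libraries lay between 18.1 and 19.8 CPM and those labelled Odc-/- between 24.0 and 25.3 CPM, a 1.30-fold rise with little spread (log2 0.38 ± 0.15, adjusted p = 0.0348). TH2 cells gave 0.53 ± 0.17 (adjusted p = 0.00775), although WT replicate 3, at 17.2 CPM, lay above KO replicates 3 and 4, at 16.6 and 16.4 CPM. Without KO replicate 2, the highest KO library, the TH2 value was 0.27 (adjusted p = 0.187). The TH1 value kept its size, from 0.35 to 0.41, with each library left out, but missed the adjusted p in 6 of 8 such fits (up to 0.0812). TH17 and Treg cells gave 0.29 and -0.18 and did not pass. Il15ra was lower in TH1 cells of the Dohh table, at 26.3, 21.2 and 26.0 CPM in WT and 14.6, 7.57 and 17.9 CPM in KO libraries (log2 -0.87 ± 0.27, adjusted p = 0.012), and it was -0.60 (adjusted p = 0.0685) without KO replicate 2, the lowest. TH17 cells went the other way, from 6.94, 5.56 and 5.77 to 6.80, 11.2 and 14.4 CPM (log2 0.81 ± 0.28, adjusted p = 0.0216). The 2 high values were the libraries of high myeloid RNA, and without them the difference was 0.16 (adjusted p = 0.78). The neighbors Il2ra and Il15ra passed in opposite directions in TH1 and TH2 cells under the Odc label with all libraries in, and in TH2 cells neither passed without KO replicate 2 (Il2ra -0.41, adjusted p = 0.0528). In TH17 cells under the Dohh label they did so only with the libraries of high myeloid RNA in.

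Promoters were searched for TTCNNNGAA, the core of a STAT binding site, since STAT proteins are known to drive several of these genes. A RefSeq promoter (GRCm38.p6, 250 bases before to 50 after the start) was on hand for 6 of the 8 genes, all but Il2rb and Socs2, with 2 starts for Il15ra. The motif reads the same on both strands. Beside the RefSeq start, it occurred once in Socs3, 154 bases before the start, and 2 times in Cish, starting 0 and 11 bases after the start, while Il2, Il2ra, Il15ra and Socs1 had no match in the 300 bases. Among 32544 mouse promoters of this length 8.33% held at least 1 match and 0.461% at least 2, and 7.04% held 1 in the 250 bases before the start. The matches are printed in capitals within part of the Socs3 promoter that holds no exon (chr11:117969452-117969616, minus strand, 250 to 86 bases before the start) and within 25 bases of Cish (chr9:107296654-107296678, plus strand, in the first exon). They are shown because Cish and Socs3 were the only 2 of the 6 genes with a match. A match is a description of letters and not a measured site.
Socs3: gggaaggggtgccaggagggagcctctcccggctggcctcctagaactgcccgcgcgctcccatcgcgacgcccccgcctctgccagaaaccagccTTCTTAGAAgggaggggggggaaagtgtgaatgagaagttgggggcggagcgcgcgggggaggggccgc
Cish: cagttTTCCTGGAAagTTCTTGGAA

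Cish (chr9:107296026-107302784, plus strand), which encodes CIS and is a direct STAT5 target, had the smallest standard errors of the 8 genes. It was lower under both labels in TH1 and TH2 cells and moved in opposite directions in TH17 and Treg cells. Part of its exon length, 11.5%, is overlapped by Gm17040 and Gm17041 on the other strand, and whether counting used strand is not given in the sources used here. Under the Dohh label Cish was lower in every subset. TH1 libraries went from 685, 669 and 602 CPM in WT to 327, 340 and 332 CPM, TH2 from 749, 685 and 633 to 439, 440 and 430, TH17 from 488, 496 and 479 to 244, 182 and 182, and Treg from 618, 607 and 612 to 312, 383 and 404 CPM. No KO library came near a WT library in any of the 4 subsets. The log2 fold changes were -0.97 ± 0.14, -0.66 ± 0.14, -1.27 ± 0.14 and -0.74 ± 0.14, with adjusted p of 1.06e-05, 6.17e-04, 4.32e-07 and 1.35e-04, and only TH17 passed 2-fold. Without the libraries of high myeloid RNA the TH17 value was -0.99 and the Treg value -1.01, each with 1 KO library. The interaction was not significant in this table (adjusted p = 0.0881).

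Under the Odc label Cish moved in both directions, always less than 2-fold. It was lower in TH1 (610 to 708 CPM in WT against 513 to 568 CPM) and TH2 cells (682 to 789 against 477 to 517 CPM), with log2 fold changes of -0.27 ± 0.10 and -0.58 ± 0.11 (adjusted p = 0.0253 and 6.69e-05). The TH1 value was -0.24 and missed the adjusted p without KO replicate 2 (0.0744) or WT replicate 1 (0.0619). It was higher in Treg cells, from 673, 574, 663 and 667 CPM to 878, 838, 797 and 891 CPM without overlap (log2 0.40 ± 0.10, adjusted p = 0.00117). TH17 cells gave 0.39 ± 0.10 (adjusted p = 0.00225), although WT replicate 4, at 601 CPM, lay within the KO range of 515 to 717 CPM. Its interaction of genotype and subset had the lowest adjusted p of the 8 genes (7.29e-06).

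Socs1 (chr16:10782240-10785536, minus strand), an inhibitor of JAKs that restrains interferon gamma and IL-2 responses, was higher in Treg cells under both labels. Treg libraries of the Dohh table went from 59.7, 70.0 and 96.5 CPM in WT to 169, 206 and 260 CPM. The rise was 2.80-fold (log2 1.49 ± 0.22, adjusted p = 1.41e-05). Without the libraries of high myeloid RNA the log2 value was 1.13, with 1 KO library left. Treg libraries of the Odc table had 53.9, 71.6, 67.4 and 108 CPM in WT and 157, 118, 148 and 106 CPM in KO, 1.76-fold higher (log2 0.81 ± 0.18, adjusted p = 3.65e-04). WT replicate 4 accounted for the overlap, and without it the gene was called (1.04). TH2 cells of the Odc table went the other way, from 110, 140, 162 and 129 to 76.9, 88.7 and 85.0 CPM (log2 -0.69 ± 0.20, adjusted p = 0.00358). The remaining 5 comparisons did not pass, with log2 values from -0.18 to 0.33. Both interactions were significant (adjusted p = 5.33e-04 in the Odc and 0.00303 in the Dohh table).

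Socs2 (chr10:95385362-95417180, minus strand) encodes an inhibitor best known from growth hormone and STAT5 signaling. It rose in TH1, TH2 and TH17 cells under the Odc label and fell in TH17 and Treg cells under the Dohh label. In TH2 cells of the Odc table WT libraries had 93.9, 65.9, 91.0 and 78.6 CPM and those labelled Odc-/- 226, 196 and 201 CPM. Every KO library stood above every WT library, and Socs2 rose 2.52-fold (log2 1.33 ± 0.25, adjusted p = 8.64e-05). TH1 cells followed with 48.5, 54.1, 45.6 and 84.4 CPM in WT and 104, 118, 86.4 and 119 CPM in KO (log2 0.88 ± 0.24, adjusted p = 0.00315). In TH17 cells the values were 104, 131, 90.3 and 250 CPM in WT and 206, 302, 198 and 301 CPM in KO (log2 0.81 ± 0.24, adjusted p = 0.00698). WT replicate 4 was the highest WT library in TH1, TH17 and Treg cells. Without it the TH1 and TH17 differences were 1.11 and 1.21 and both were called. Treg cells gave 0.20 ± 0.23, from a WT level of 315 to 461 CPM that was already the highest of the subsets.

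In libraries labelled Dohh-/- Socs2 fell in TH17 and Treg cells. TH17 libraries went from 106, 129 and 103 CPM to 38.3, 44.3 and 29.8 CPM, a 3.01-fold fall (log2 -1.59 ± 0.29, adjusted p = 1.50e-04). Treg libraries went from 224, 237 and 269 CPM to 74.5, 109 and 82.6 CPM, a 2.75-fold fall (log2 -1.46 ± 0.29, adjusted p = 2.60e-04). Neither pair of groups overlapped. Without the libraries of high myeloid RNA the values were -1.55 (adjusted p = 0.0188) and -1.74 (adjusted p = 0.00865), each with 1 KO library. TH2 libraries were alike, at 96.7, 92.1 and 92.5 CPM in WT and 95.6, 99.4 and 92.4 CPM in KO (log2 0.03 ± 0.28). In TH1 cells the KO libraries spread from 14.4 to 57.8 CPM around a WT range of 49.7 to 61.4 CPM, and the difference of -0.44 ± 0.29 did not pass (adjusted p = 0.205).

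Socs3 (chr11:117966079-117970047, minus strand), the inhibitor of IL-6 and other gp130 signals and a target of STAT3, showed the largest falls of the 8 genes. In TH2 cells of the Odc table WT libraries had 528, 560, 579 and 390 CPM and those labelled Odc-/- 95.4, 149 and 103 CPM. The groups lay far apart, and Socs3 fell 4.43-fold (log2 -2.15 ± 0.29, adjusted p = 1.56e-06). The Dohh table gave 635, 505 and 462 CPM against 171, 177 and 131 CPM in TH2 cells, 3.34-fold lower (log2 -1.74 ± 0.27, adjusted p = 2.71e-05). TH2 cells were thus the subset in which Socs3 was called lower in both tables.

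In TH1 cells of the Dohh table Socs3 went from 271, 297 and 253 CPM to 117, 49.2 and 100 CPM (3.08-fold lower, log2 -1.62 ± 0.27, adjusted p = 4.61e-05). In TH1 cells of the Odc table it went from 367, 311, 400 and 248 CPM to 298, 139, 145 and 129 CPM (log2 -0.90 ± 0.25, adjusted p = 0.00347). KO replicate 1, at 298 CPM, stood apart from the other 3, and without it the value was -1.28 and called. The same library held 1246 CPM of B cell markers against 273 to 334 CPM in the other 3, and 1307 CPM of helper subset markers against 2260 to 3189 CPM, and their part in the Socs3 value was not tested. TH17 libraries of the Dohh table went from 551, 621 and 585 CPM to 167, 113 and 73.6 CPM, a 4.98-fold fall (log2 -2.31 ± 0.27, adjusted p = 9.65e-07). Without the 2 libraries of high myeloid RNA the log2 value was -1.81, with 1 KO library left. The same subset of the Odc table gave 267, 262, 279 and 199 CPM in WT and 192, 286, 253 and 273 CPM in KO libraries, with overlapping groups and a log2 difference of 0.00 ± 0.25. In Treg cells, where WT levels were lowest, the differences of -0.19 ± 0.25 (Odc) and -0.57 ± 0.26 (Dohh) missed the adjusted p (0.524 and 0.0684). The Odc groups overlapped there, whereas the Dohh groups did not, at 128 to 161 CPM in WT and 84.8 to 110 CPM in KO libraries.

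Whether an effect depended on the subset was tested within each table by the interaction of genotype and subset. Under the Odc label Il2, Il2rb, Cish, Socs1 and Socs3 passed, 5 of 8 beside 34.8% of all genes tested. Socs2 (adjusted p = 0.0629) and Il15ra (adjusted p = 0.0646) did not pass in this fit, and both passed (0.00605 and 0.0415) once the replicate number within genotype was a block. Under the Dohh label Il2ra (adjusted p = 0.0386), Il15ra (0.0264), Socs1 (0.00303), Socs2 (0.0123) and Socs3 (0.0115) passed, 5 of 8 beside 17.9% of all genes. With 1 of the 24 libraries left out at a time, Il2ra was lost in 17 fits (adjusted p up to 0.102), Il15ra in 5 (up to 0.0637) and Socs3 in 1 (0.0504). The 5 genes had adjusted p from 0.0694 to 0.281 without the 4 libraries of high myeloid RNA, so none passed then.

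Loss of the 2 enzymes, by label, was compared within each subset as the difference between the Odc and the Dohh effect, each against its own WT. Socs2 differed in all 4 subsets, by 1.30 ± 0.38 in TH1, 1.32 ± 0.39 in TH2, 2.34 ± 0.38 in TH17 and 1.62 ± 0.37 in Treg cells on the log2 scale, each time higher under the Odc label (adjusted p = 0.0134, 0.0148, 1.41e-05 and 8.50e-04). Cish differed in TH1 (0.68 ± 0.15), TH17 (1.61 ± 0.15) and Treg cells (1.10 ± 0.15), again higher under the Odc label. In TH17 cells Socs3 differed by 2.26 ± 0.38 (adjusted p = 2.62e-05). In TH2 cells neither Cish (0.09 ± 0.16) nor Socs3 (-0.39 ± 0.39) was shown to differ.

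Among the receptor chains, Il2rb was lower under the Odc than the Dohh label in TH1 (-0.92 ± 0.26), TH2 (-0.78 ± 0.27) and Treg cells (-0.89 ± 0.26). Its TH1 value lay between -1.18 and -0.61 with 1 library left out at a time. It missed the adjusted p in 1 of these 14 fits (0.0658, edgeR's quasi-likelihood test). Il2ra (-1.08 ± 0.31) and Socs1 (-0.87 ± 0.29) joined Il2rb in TH2 cells. In TH1 cells Il15ra (1.23 ± 0.29) and Il2 (4.22 ± 1.10) were higher under the Odc label, the last with few counts behind it. By subset 5, 4, 3 and 3 of the 8 passed in TH1, TH2, TH17 and Treg cells, beside 18.5%, 15.7%, 21.4% and 26.2% of 14850 genes tested. All 4 calls of TH2 cells were lost without replicate 2 of the libraries labelled Odc-/-. Those of Il2rb and Socs1 were lost in 7 of 13 fits that left out 1 library (adjusted p up to 0.107 and 0.126) and that of Il2ra in 2, whereas in TH17 and Treg cells leaving out the libraries of high myeloid RNA kept the 3 genes called in each.

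**Figure D4:**
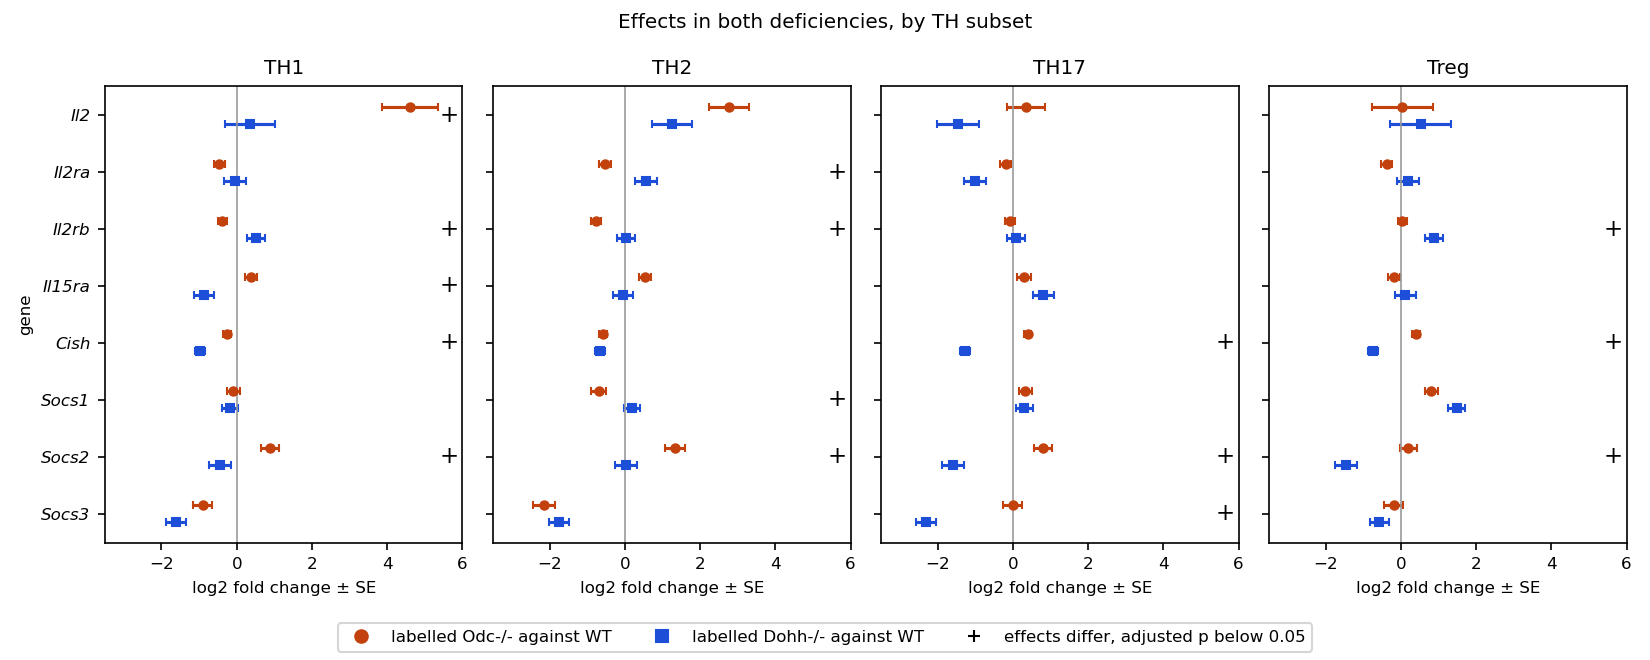
Log2 fold change ± SE of each of the 8 genes, KO against WT, with a panel for each subset. Circles show the Odc table and squares the Dohh table, and a plus marks genes where the difference between both effects passed. The Socs2 square lies left of the circle in each subset. The Socs3 square lies far left of the circle in TH17 cells, whereas both lie well below 0 in TH2 cells.

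Among WT cells, with all libraries in, Il2, Il15ra, Socs2 and Socs3 were called between subsets in both tables, Il2ra and Socs1 in the Dohh table alone, and Il2rb and Cish in neither. Socs2 was ordered TH1, TH2, TH17, Treg from low to high in both tables, with means of 58.1, 82.3, 144 and 370 CPM (Odc) and 53.9, 93.8, 113 and 243 CPM (Dohh). Treg cells exceeded TH1 cells 6.36-fold (adjusted p = 1.47e-09) and 4.51-fold (adjusted p = 7.94e-06). TH1 and TH2 cells missed the adjusted p in both tables (0.148 and 0.0802), although the WT libraries of the Dohh table did not overlap (49.7 to 61.4 against 92.1 to 96.7 CPM). TH2 and TH17 cells missed it in the Dohh table (0.535). Treg over TH17 cells was called there (2.15-fold, adjusted p = 0.0125 by edgeR's quasi-likelihood test). This pair missed the adjusted p without TH17 WT replicate 1 or 3 or Treg WT replicate 3 (0.0504 to 0.0608). Socs3 was lowest in Treg cells of both tables, at 79.3 and 140 CPM, against 514 and 534 CPM in TH2 cells (6.48-fold and 3.81-fold, adjusted p = 2.54e-09 and 8.06e-06). TH1 cells stood between them and passed the adjusted p over Treg cells in both tables. TH17 cells took a different rank in each table, at 252 CPM and second lowest in the Odc table but 586 CPM and the highest in the Dohh table, where TH2 and TH17 cells were not shown to differ.

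Il15ra was highest in TH1 cells, at 18.8 and 24.5 CPM, and lowest in TH17 cells, at 4.93 and 6.09 CPM (3.80-fold and 4.01-fold, adjusted p = 4.63e-10 and 1.98e-05). Its order was TH1, TH2, Treg and TH17, where TH1 over TH2 and Treg over TH17 passed the adjusted p in the Odc table and TH2 over Treg in the Dohh table. Socs1 was higher in TH2 (204 CPM) and TH1 cells (154 CPM) than in Treg (75.4 CPM) and TH17 cells (71.8 CPM) of the Dohh table, with all 4 pairs across that divide called, and neither neighboring pair within it passed. The call of TH1 over Treg cells (1.03) was just past 2-fold and fell to between 0.85 and 0.97 without TH1 WT replicate 1 or 2 or Treg WT replicate 1 or 2. In the Odc table the order was TH2, TH1, TH17 and Treg at 135, 111, 82.1 and 75.3 CPM, and no neighboring pair passed the adjusted p. TH2 over Treg cells passed it there at a log2 difference of 0.84, and was called (1.07) without Treg WT replicate 4.

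**Figure D5:**
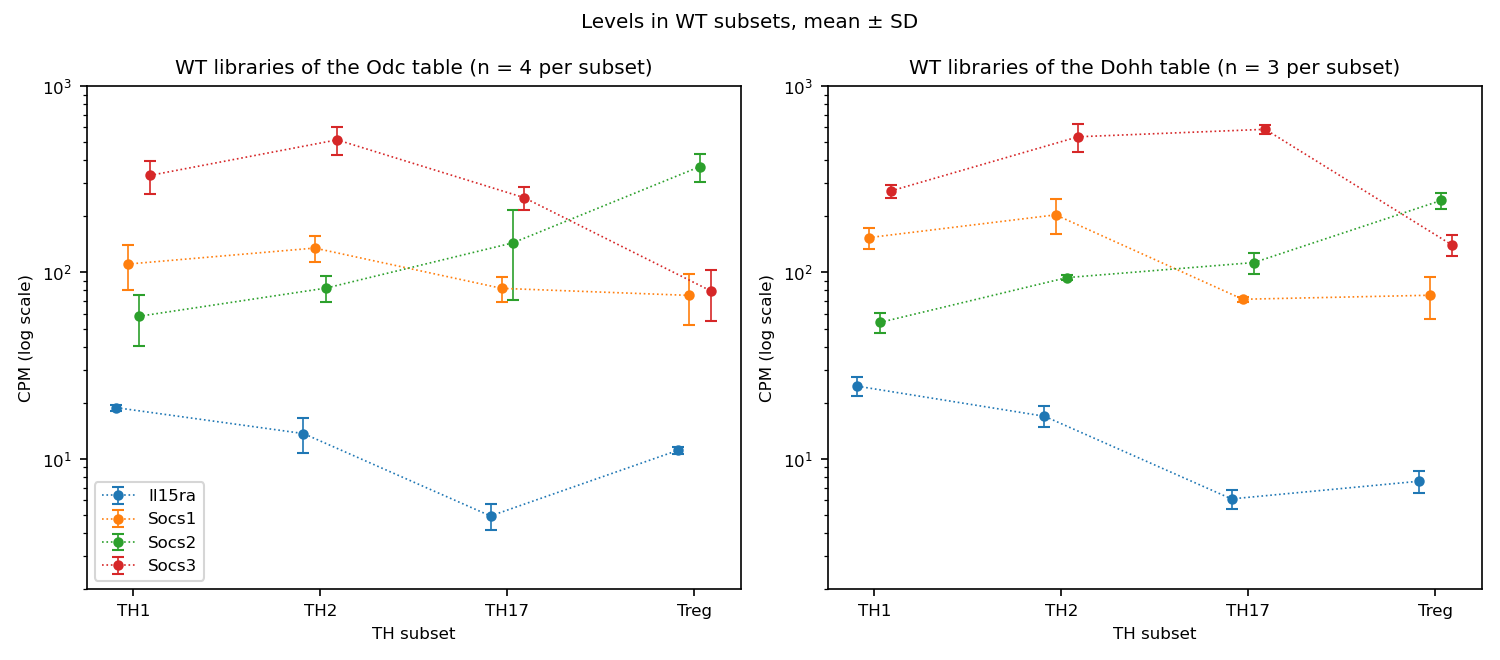
CPM of Il15ra, Socs1, Socs2 and Socs3 in the WT libraries of each subset on a log scale, as mean and SD, for the Odc (4 libraries a subset) and Dohh tables (3 a subset). Socs2 is highest and Socs3 lowest in Treg cells in both tables, and Socs3 in TH17 cells averages 252 CPM in one table and 586 CPM in the other.

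Il2ra and Il2rb varied less among WT subsets. In the Odc table Il2ra went from 4037 CPM in TH1 through 3599 in TH2 and 3171 in TH17 to 2702 CPM in Treg cells, and no neighbors passed the adjusted p. TH1 and TH2 cells passed it over Treg cells, at 1.49-fold and 1.33-fold (adjusted p = 0.00163 and 0.0189, edgeR's quasi-likelihood test). The Dohh table had 2601 CPM in TH1, 2083 in TH2, 1294 in Treg and 1178 CPM in TH17 cells, with TH1 called over both TH17 (2.21-fold) and Treg cells (2.01-fold, under 2-fold with DESeq2, with other size factors and without single libraries). Il2rb stood at 1430 (TH2), 1375 (TH1), 1080 (TH17) and 1000 CPM (Treg) in the Odc table. There TH1 and TH2 each exceeded TH17 and Treg cells, from 1.27-fold (TH1 over TH17, adjusted p = 0.0244) to 1.43-fold (TH2 over Treg, adjusted p = 9.51e-04). No Il2rb pair passed in the Dohh table. Cish was lowest in TH17 cells, at 485 and 488 CPM against 612 to 752 CPM in the other subsets, and its distance to TH1 and TH2 cells passed the adjusted p in both tables without reaching 2-fold.

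Il2 was most abundant in TH17 cells of both WT sets (4.69 and 2.45 CPM), followed by TH2 cells (3.70 and 1.66 CPM), and these neighbors were not shown to differ, nor were TH1 and Treg cells, which held the least. TH17 cells, the one mix for which no further IL-2 was listed, exceeded TH1 cells 13.7-fold in the Odc table and 4.84-fold in the Dohh table (adjusted p = 2.77e-04 and 0.00727), from TH1 levels near the floor. The Dohh difference missed the adjusted p (0.0524) without TH1 WT replicate 1. Over the 6 pairs of WT subsets in the order TH1-TH2, TH1-TH17, TH1-Treg, TH2-TH17, TH2-Treg and TH17-Treg, 1, 3, 2, 2, 3 and 4 of the 8 genes were called in the Odc table, beside 8.87%, 14.9%, 19.4%, 17.5%, 21.1% and 14.0% of all genes. For the Dohh table the counts were 0, 6, 4, 2, 5 and 3, beside 6.21%, 12.4%, 15.5%, 13.7%, 17.1% and 7.07%. TH1 and TH2 cells were the pair with the fewest calls in both. There the Dohh table had no call by edgeR's quasi-likelihood test, where Socs3 passed the adjusted p (0.0176) at 1.95-fold and Il2 was called once only these 2 groups were fitted (-1.68, adjusted p = 0.00944).

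Of 12 genes of JAK-STAT5 and proximal signaling none was called higher in any of the 8 comparisons, while 2, 3, 0 and 2 were called lower in TH1, TH2, TH17 and Treg cells of the Odc table, with Dohh counts of 5, 4, 4 and 6. Of all genes, 11.3%, 13.6%, 7.21% and 10.1% were called lower in these subsets of the Odc table and 14.2%, 11.6%, 14.1% and 15.2% in the Dohh table, so that the Odc counts, of at most 3 genes, were not far from the share of all genes. The list's median log2 fold change lay between -0.29 and -0.55 in the Odc and -0.40 and -0.73 in the Dohh table, beside medians of all genes from 0.00 to 0.07. Jak3, the kinase bound to the common gamma chain, was called lower in 7 of 8 comparisons, with log2 fold changes of -1.11 to -2.08, and differed by -0.83 in TH17 cells of the Odc table. Stat5b was called lower in 6 of 8 (-1.03 to -1.75), and Stat5a in TH1, TH2 and Treg cells of the Dohh table (-1.16, -2.27 and -1.52).

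Among 13 other SOCS genes and JAK-STAT inhibitors none was called higher, and 0, 0, 0 and 1 (Odc) and 2, 2, 1 and 0 (Dohh) were called lower, with Socs4, Socs5, Socs6 and Socs7 not called in any of the 8. These counts were near or below the shares of all genes called lower, which were 7.21% to 13.6% in the Odc and 11.6% to 15.2% in the Dohh table, and say nothing particular of the list. Beside the same shares, receptors of the other added cytokines, 8 genes, were mostly lower where called (2, 3, 3 and 1 lower in the Odc table, 4, 4, 4 and 3 lower in the Dohh table, and Il1r1 higher in TH2 and Treg cells of the latter). Il6ra, the receptor of IL-6, whose signal is known to induce Socs3, was called lower in all 8, with log2 fold changes of -1.03 to -2.27 in the Odc and -2.82 to -6.19 in the Dohh table. Of 8 common gamma chain receptors and cytokines tested, 2, 1, 1 and 2 were called higher and 0, 4, 1 and 1 lower in TH1, TH2, TH17 and Treg cells under the Odc label, and 1, 1, 2 and 3 higher and 3, 2, 2 and 0 lower under the Dohh label. Beside them, 8.35% to 13.9% of all genes were called higher and 7.21% to 13.6% lower under the Odc label, and 14.3% to 17.5% and 11.6% to 15.2% under the Dohh label. Il9 was called higher in the 4 Odc comparisons (2.98 to 5.94) and Il15 in the 4 Dohh comparisons (2.89 to 4.72). Il21 was called lower in TH2 of the Odc and TH1, TH2 and TH17 of the Dohh table (-1.55 to -2.93) and higher in Treg cells of the latter (3.66), and Il4ra lower in the same 4 comparisons as Il21 (-1.11 to -1.93). Il7r was called lower in TH2, TH17 and Treg cells of the Odc table (-1.05 to -1.60), and Il4 higher in TH1 and Treg cells of the Odc and Treg cells of the Dohh table (1.34 to 1.86). Il9r was called lower in TH2 of the Odc (-2.77) and TH1 of the Dohh table (-1.68) and higher in TH17 of the latter (2.05).

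Genes known to respond to IL-2 and STAT5 were called in both directions. Of 22 tested, 2, 4, 6 and 6 were called higher and 2, 3, 4 and 5 lower in the Odc table, and for the Dohh table it was 5, 6, 4 and 10 higher and 4, 4, 5 and 4 lower, in the order TH1, TH2, TH17, Treg. Beside them stood 10.2%, 11.5%, 8.35% and 13.9% of all genes called higher and 11.3%, 13.6%, 7.21% and 10.1% lower in the Odc table, and 14.8%, 14.3%, 17.3% and 17.5% higher and 14.2%, 11.6%, 14.1% and 15.2% lower in the Dohh table. Several of these counts, such as the 2 higher and 2 lower in TH1 cells of the Odc table, were near the share of all genes and say nothing particular of the list. Gzmb and Prf1, which encode the cytotoxic proteins granzyme B and perforin, were called higher in all 8 comparisons, by 1.52 to 7.96 and 1.68 to 5.69 on the log2 scale. Prf1 is also on the list of CD8 T and NK cell markers, whose sum moved with them. Tnfrsf18, encoding the costimulatory receptor GITR, was called lower in 6 of 8 (-1.11 to -1.46). Bcl6, a repressor that STAT5 opposes, was called higher in 2 (1.74 and 1.62) and lower in 5 (-1.02 to -2.17).

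Over the 55 libraries, with each table centred on its mean, the likest gene of 12924 was named for each of the 8 by Pearson correlation of log2 CPM, as a description of libraries that share subset, genotype and depth. It was Arid5a for Socs3 (0.92), Cradd for Socs2 (0.91), Hdlbp for Il2ra (0.84), Sgms1 for Il15ra (0.83), Lrp8 for Socs1 (0.81), Arhgef17 for Cish (0.81), Abhd17c for Il2 (0.77) and Cmip for Il2rb (0.75). None of the 8 had another of the 8 as its likest gene. Cradd (chr10:95174746-95324133, minus strand) lies 61228 bases from Socs2 on the same strand, while the other 7 were on a different chromosome from the gene they resembled.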

How the data were processed

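RNA was sequenced from TH1, TH2, TH17 and Treg cultures of WT mice and mice labelled Odc or Dohh KO. A kit that keeps strand was used to make the libraries. The submitters' processing notes name deepTools, STAR, featureCounts and DESeq2 and the build mm10, with no versions, and the strand setting is not given in the sources used here. What the authors deposited are whole-number counts of reads by gene, not normalized, for 31 libraries in the Odc and 24 in the Dohh table, and 47224 of 47937 gene IDs were matched to symbols. No column of the Odc table was matched to replicate 1 of the TH2 libraries labelled Odc-/-, which was not analysed here.

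The 8 genes and all lists were chosen with earlier results of these data known. Counts were tested with edgeR 4.0.16 (R 4.3.3) by the quasi-likelihood test with robust fitting, in 1 fit per table over its 8 groups, after filterByExpr and TMM scaling, with Benjamini-Hochberg adjustment over all genes tested. A call took a fold change over 2 and an adjusted p under 0.05. Interactions and Odc minus Dohh differences (1 fit of both tables, 14850 genes) took the adjusted p alone. An SE was the log2 fold change divided by the root of its F statistic. CPM used TMM-scaled library sizes, and means are given with SD in the plots. The floor was 3 counts a library, 0.310 to 0.499 CPM in the Odc and 0.226 to 0.473 CPM in the Dohh table, and covers counting error only. Likeness used log2 CPM with a prior count of 2. Named genes were the 8 genes, the likest gene to each, genes of a list called in at least 6 of 8 comparisons (at most 4 a list), Odc1, Dohh and Il2rg. Cd2, Cd3e, Cd4, Cd5, Cd28, Cd8a, Cd8b1, Tbx21, Gata3, Il17a, Foxp3, Stat5a, Il4, Il7r, Il9, Il9r, Il15, Il21, Il4ra, Il1r1, Socs4, Socs5, Socs6, Socs7, Itgam and Pax5 fall outside that rule and were named after their values were seen. Scripts were tested on simulated counts. No 2 libraries held identical counts. Same-numbered WT libraries of the Odc table deviated together across subsets (24 of 24 correlations over 0.1, lowest 0.206), with no change in any call between WT subsets when blocked, whereas WT and KO of 1 number did not pair (7 of 15 over 0.1 in the Odc and 1 of 12 in the Dohh table). Alternatives were other size factors, no filter, DESeq2 1.42.0, 2 groups only, a replicate block, no fold threshold and each library left out. Gene models came from GENCODE on GRCm38 and promoters from RefSeq on GRCm38.p6.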

Additional observations from a re-analysis of the deposited data

Results flagged for a closer look

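In 9 of 56 groups of 4 libraries (all in the Odc table, where groups were large enough to test) 1 library stood apart by Dixon's criterion, which chance alone flags in about 1 of 20 groups. High values were Il2rb in TH2 WT replicate 1 (1533 CPM), Cish in TH17 WT replicate 4 (601 CPM), Socs1 in TH1 WT replicate 3 (156 CPM) and TH1 KO replicate 1 (126.5 CPM), and Socs3 in TH1 KO replicate 1 (298 CPM). Low values were Il2ra in TH17 KO replicate 3 (2144 CPM), Il15ra in TH17 WT replicate 2 (3.75 CPM) and Treg WT replicate 2 (10.4 CPM), and Cish in Treg WT replicate 2 (574 CPM).

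The effect of the Odc label differed between subsets, by edgeR's quasi-likelihood test of the interaction, for Il2 (adjusted p = 0.00166), Il2rb (0.00431), Cish (7.29e-06), Socs1 (5.33e-04) and Socs3 (2.95e-04). That of the Dohh label differed for Il2ra (0.0386), Il15ra (0.0264), Socs1 (0.00303), Socs2 (0.0123) and Socs3 (0.0115).

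The Odc effect minus the Dohh effect passed the same test on the log2 scale for Il2 in TH1 (4.22), Il2ra in TH2 (-1.08), Il2rb in TH1 (-0.92), TH2 (-0.78) and Treg (-0.89), Il15ra in TH1 (1.23), and Socs1 in TH2 cells (-0.87). It passed for Cish in TH1 (0.68), TH17 (1.61) and Treg (1.10), for Socs2 in TH1 (1.30), TH2 (1.32), TH17 (2.34) and Treg (1.62), and for Socs3 in TH17 cells (2.26).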

How the results depend on the processing

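Other size factors, no filter on low counts, DESeq2, only the 2 groups compared, a replicate block, no fold threshold and each library left out were tried, and 14 of the 64 KO against WT log2 fold changes changed sign in some setting, all of them values of 0.52 or less that missed the adjusted p, as did 4 Odc minus Dohh differences. With no fold threshold the members past the test went from 1 to 7 (TH1), 3 to 8 (TH2), 0 to 2 (TH17) and 0 to 3 (Treg) in the Odc table, from 1 to 3, 1 to 2 and 2 to 4 in TH1, TH2 and Treg cells of the Dohh table, and from 15 to 30 over WT pairs of the Odc table. With only the 2 groups compared the Odc TH1 count was 0, since Il2 did not pass the low-count filter there and was not tested, and the Dohh TH2 count 2 (Il2 gained, 1.27). The Dohh TH17 count was 3 with no filter, and Il2ra there stood at -0.98 with other size factors, -0.99 with DESeq2 and -0.97 (adjusted p = 0.0779) with 2 groups.

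WT and KO libraries share a number without pairing, and with the replicate block the Odc TH1 count was 0 (Il2 again not tested), the Dohh TH2 count 2 and the Dohh TH17 count 4, with the other 5 counts as without it. With the number within each genotype as a block (24 of 24 WT and 20 of 21 KO correlations between subsets over 0.1 in the Odc table), the WT pairs kept 15 and 20 calls, and the Odc interaction went from 5 to 7 genes, with Socs2 (0.00605) and Il15ra (0.0415) added.

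Leaving out 1 library at a time gave 1 to 3 (TH1), 3 to 3 (TH2), 0 to 1 (TH17) and 0 to 1 (Treg) members called in the Odc table, and 1 to 2, 1 to 2, 3 to 6 and 2 to 2 in the Dohh table. WT replicate 4 of the Odc table was the library behind the upper values in TH1 (Socs2 1.11, Socs3 -1.02), TH17 (Socs2 1.21) and Treg cells (Socs1 1.04), and KO replicate 1 for Socs3 in TH1 (-1.28). In the Dohh table Il15ra was called without TH1 KO replicate 3 (-1.12) and TH17 KO replicate 1 (1.05), Cish without TH1 WT replicate 3 (-1.03) and Il2 without TH2 KO replicate 1 (1.55). Odc minus Dohh differences gave 4 to 5, 0 to 4, 3 to 4 and 3 to 4, interactions 5 to 6 (Odc) and 3 to 7 (Dohh), and WT pairs 13 to 16 and 17 to 21. The WT call of Socs2 between TH1 and TH17 cells of the Odc table (-1.31) was -0.90 without TH17 WT replicate 4.

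Leaving out the 4 libraries labelled Dohh-/- with over 1000 CPM of myeloid markers was chosen after seeing the data. It leaves 1 KO library each in TH17 and Treg cells, assumed to vary like the other groups. Members called went from 5 to 2 in TH17 and from 2 to 3 in Treg cells, and the Dohh interaction from 5 to 0. The Odc minus Dohh difference of Il15ra in TH17 cells, -0.57, turned to 0.10 and passed in neither. The cause of these changes was not tested. Il2 and Il15ra are limited by depth, with 1319 and 309 Il2 counts in the 2 tables.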
